A study of Mus musculus with 22 samples.

Results

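The 9 genes described here encode the machinery that loads peptides onto MHC class I molecules: the heavy chains H2-K1, H2-D1 and H2-T23, the light chain B2m, the peptide transporter subunits Tap1 and Tap2, the bridging chaperone tapasin (Tapbp), the trimming enzyme Erap1 and the transcriptional activator Nlrc5. They were taken by gene symbol from the 3 deposited count tables. All 9 were listed in each table, among 35255 genes listed in at least 1 table and 20484 in all 3.

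RNA was sequenced in 22 libraries from VISTA knockout (KO) mice and wild-type (WT) mice, both on a C57BL/6N background. VISTA is an immune checkpoint protein encoded by Vsir. Bone marrow myeloid cells were grown with GM-CSF and IL-6 in normoxia to day 4 (4 KO and 4 WT libraries) or held in hypoxia, at a 24 h time point (4 and 4), and samples from the MC38 colon carcinoma line grown as a tumor were taken at day 7 (3 and 3). The labels state the 2 cytokines for the normoxia cultures only. They call the tumor samples tissue and describe no purification, while the tables are named for MDSC, myeloid-derived suppressor cells. They do not say how Vsir was inactivated, in which cells, or whether animals were pooled. In the culture tables the KO columns carry a code and were read as KO because the others are named WT. The normoxia cultures are stated to be independent biological replicates, with the myeloid-derived suppressor cells purified from them before RNA was taken. Nothing of the kind is stated for hypoxia or tumor, so p-values there measure only the spread between these samples, which may be technical.

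Class I molecules display peptides from inside the cell to CD8 T cells. The proteasome cuts proteins, the TAP transporter carries the fragments into the endoplasmic reticulum, ERAP1 trims them, and tapasin holds the empty heavy chain and β2-microglobulin at TAP until a peptide binds. H2-K1 and H2-D1 encode the classical heavy chains, H2-T23 the Qa-1 chain that presents to NK cell receptors, and NLRC5 drives this gene set from a conserved promoter module, with interferons as the usual inducers.

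H2-K1 (chr17:33996017-34000347, minus strand), H2-D1 (chr17:35262730-35267499, plus), H2-T23 (chr17:36029773-36032855, minus), Tap1 (chr17:34187553-34197225, plus), Tap2 (chr17:34203527-34216321, plus) and Tapbp (chr17:33915899-33929292, plus) lie in the MHC region. B2m (chr2:122147686-122153083, plus), Erap1 (chr13:74639568-74693201, plus) and Nlrc5 (chr8:94434356-94527272, plus) lie elsewhere (GRCm38, gene spans of GENCODE M21).

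RefSeq promoter windows of GRCm38.p6, 250 bases before to 50 after the start site, were matched for 7 of the 9 genes, not for Tap2 or Nlrc5. All 9 genes were higher in every tumor library than in any culture library. The windows below are those of the heavy chains and the light chain, with Erap1, whose ratio of tumor to culture was the least of the 9, for contrast. Those of Tap1 and Tapbp are not shown. Capitals mark matches, on either strand, to TGACG (the core of the X2 box), CCAAT or its complement ATTGG (the Y box), AANNGAAA (an interferon regulatory factor core), GAAA, any 2 bases and GAAA in a row (its doubled form, which contains the core) and the NF-kB consensus. H2-K1 lies at chr17:34000298-34000597 (minus strand, the first of 2 windows listed), H2-D1 at chr17:35262844-35263143 (plus), H2-T23 at chr17:36032652-36032951 (minus), B2m at chr2:122147437-122147736 (plus) and Erap1 at chr13:74639603-74639902 (plus).
H2-K1: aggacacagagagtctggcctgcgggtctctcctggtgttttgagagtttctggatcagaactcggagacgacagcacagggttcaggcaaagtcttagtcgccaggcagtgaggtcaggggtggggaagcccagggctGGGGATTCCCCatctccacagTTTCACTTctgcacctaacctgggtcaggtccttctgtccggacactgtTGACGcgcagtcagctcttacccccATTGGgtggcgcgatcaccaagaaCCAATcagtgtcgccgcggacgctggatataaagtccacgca
H2-D1: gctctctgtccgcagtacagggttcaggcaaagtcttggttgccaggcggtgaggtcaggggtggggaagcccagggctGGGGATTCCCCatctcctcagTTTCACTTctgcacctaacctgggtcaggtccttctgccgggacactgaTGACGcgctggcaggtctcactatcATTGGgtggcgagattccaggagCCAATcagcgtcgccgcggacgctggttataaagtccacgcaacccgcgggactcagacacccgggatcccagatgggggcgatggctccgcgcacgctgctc
H2-T23: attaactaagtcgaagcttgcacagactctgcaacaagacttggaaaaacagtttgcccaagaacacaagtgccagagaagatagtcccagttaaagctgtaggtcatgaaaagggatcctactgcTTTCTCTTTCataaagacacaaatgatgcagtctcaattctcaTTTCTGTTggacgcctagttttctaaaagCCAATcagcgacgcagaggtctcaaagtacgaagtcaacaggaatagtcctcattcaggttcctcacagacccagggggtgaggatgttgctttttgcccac
B2m: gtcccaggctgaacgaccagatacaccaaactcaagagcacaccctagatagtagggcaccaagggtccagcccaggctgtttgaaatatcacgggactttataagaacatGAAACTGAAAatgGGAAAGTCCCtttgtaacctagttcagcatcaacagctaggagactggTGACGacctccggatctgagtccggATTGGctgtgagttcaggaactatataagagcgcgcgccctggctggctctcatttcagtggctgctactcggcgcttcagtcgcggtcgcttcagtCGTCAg
Erap1: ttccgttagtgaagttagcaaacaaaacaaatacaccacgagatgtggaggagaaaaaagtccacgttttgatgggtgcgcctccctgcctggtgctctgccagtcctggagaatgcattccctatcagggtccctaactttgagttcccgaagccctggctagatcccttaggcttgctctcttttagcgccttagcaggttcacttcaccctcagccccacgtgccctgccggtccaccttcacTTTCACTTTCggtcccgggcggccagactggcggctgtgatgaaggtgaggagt

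TGACG followed 15 to 35 bases later by ATTGG on the same strand occurred in H2-K1, H2-D1 and B2m, each time at a spacing of 25 bases, against 0.743% of the 32851 promoters in the table. H2-K1 and H2-D1 aligned over 239 columns with 211 identical (88.3%), and each held 2 overlapping NF-kB matches. Of the 7 windows, 4 held TGACG (20.8% of all promoters), 6 held CCAAT (37.4%), 5 held AANNGAAA (23.9%), 3 held the doubled form (3.44%) and 3 held the NF-kB consensus (8.46%). The Tap1 window shares 275 bases with that of Psmb9, which is read from the opposite strand. Of the matches searched for, the Tap1 window held only TGACG and CCAAT, and that of Tapbp only CCAAT. These matches describe letters in a window and do not show binding, and their relation to RNA levels was not tested.

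Total counts ranged from 23409142 to 23722932 in normoxia and from 30839108 to 31385825 in hypoxia. In tumor they ranged from 19119985 to 23089943 in KO and from 27452024 to 31716200 in WT. Levels are CPM, counts scaled to a common library size after TMM adjustment. A gene was called where the Benjamini-Hochberg adjusted p of edgeR's quasi-likelihood test was under 0.05 over all genes tested. Vsir, the targeted gene, stood at 138.8, 144.2, 182.5 and 242.0 CPM in KO normoxia cultures against 650.5, 651.9, 855.5 and 690.0 in WT. In hypoxia it stood at 156.3, 162.7, 156.3 and 112.4 CPM in KO against 528.5, 610.4, 511.9 and 530.0 in WT, and in tumor at 113.8, 113.3 and 128.0 against 426.3, 468.7 and 479.8. No KO library reached a WT level in any of the 3 experiments, with log2 fold changes of -2.01 in normoxia, -1.89 in hypoxia and -1.95 in tumor. In normoxia, KO replicate 4 and WT replicate 3 correlated least with the other 3 libraries of their groups over log2 CPM (mean r = 0.9842 and 0.9891, against 0.9884 to 0.9903 for the other KO and 0.9909 to 0.9925 for the other WT libraries). Results that change without them are given in both ways.

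The largest differences among the 9 genes were between tumor and culture. Every tumor library lay above every culture library for all 9, which held for 27.2% of 16048 genes tested in this direction and, in the opposite direction, for 26.5%. Scaled over the 22 libraries, WT tumor exceeded WT normoxia 24.4-fold for Nlrc5, 22.8-fold for H2-T23, 22.1-fold for Tap1, 21.5-fold for H2-D1 and 13.1-fold for H2-K1. The ratio was 10.6 for Tapbp, 5.69 for Tap2, 4.83 for B2m and 1.75 for Erap1. Nlrc5 exceeded 96.3% of genes in this ratio, Erap1 72.1%. Tumor and culture differ in tissue, time and table, so no test was made.

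**Figure D1:**
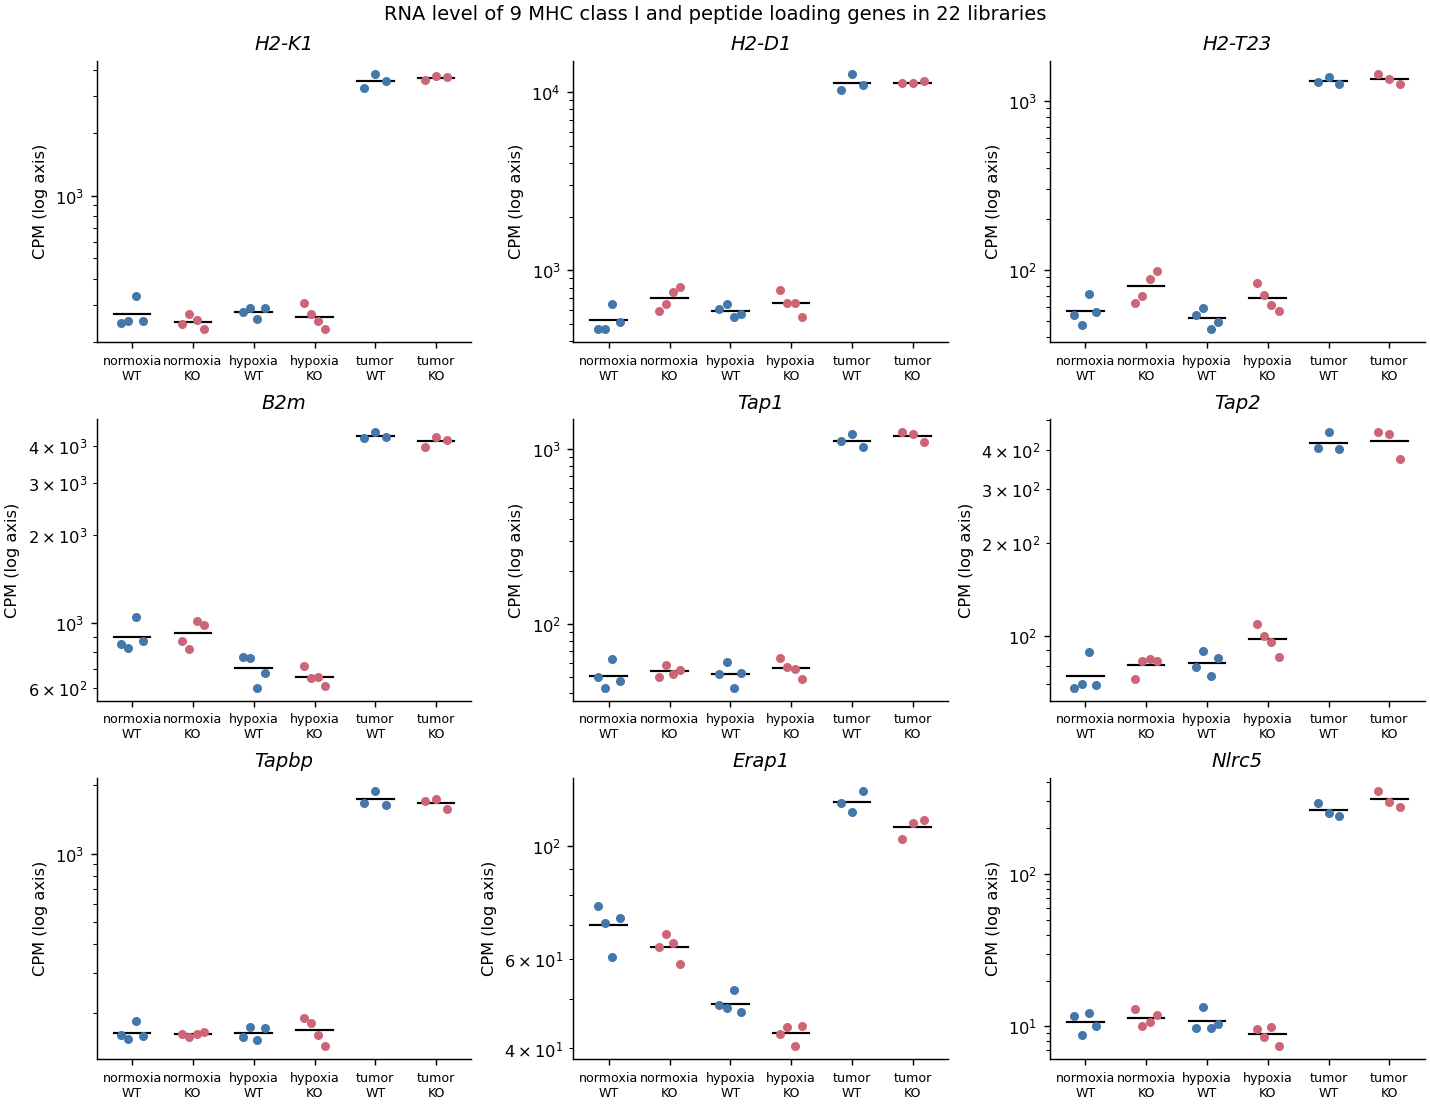
RNA level (CPM scaled over all 22 libraries, log axis with its own range per gene) in each library of the 6 groups, with WT in blue, KO in red and a line at each group mean. The 6 tumor libraries sit above the 16 culture libraries for each gene, with Erap1 nearest to them.

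The libraries also differed in their markers. Csf1r, the receptor for macrophage growth factor, averaged 2591 CPM in WT tumor and 526.6 in WT normoxia. S100a8 and Ly6g, neutrophil genes, averaged 6750 and 72.07 CPM in WT normoxia, but reached at most 3.968 and 0.1602 CPM in any tumor library. The 13 myeloid markers, which include these, summed to 19220 to 28120 CPM in tumor and 17430 to 45890 in culture. Of them, 5 were higher in every tumor library than in any culture library (27.2% of all genes). The median ratio of WT tumor to WT normoxia was 1.47 for this list. The summed T and NK cell markers spanned 29.18 to 57.1 CPM in WT tumor and 13.15 to 17.37 in KO tumor, against at most 6.041 in culture. Single genes of this list differed in direction between the genotypes in tumor. Of 9 tested, 4 were called lower in KO (Cd3e, Cd3g, Cd4 and Gzmb) and 0 higher, where 6.32% of all genes were called. The NK cell genes Ncr1 (log2 fold change 1.55) and Klrb1c (0.14) lay above 0 and were not called. Fibroblast markers summed to 379.2 to 450.3 CPM in WT tumor and 471 to 599.6 in KO tumor, against at most 32.4 in culture. The 8 epithelial or carcinoma markers summed to 16.79 to 58.17 CPM in tumor and 44.67 to 288.5 in culture. Of these, Epcam stayed at or below 0.6728 CPM in all 22 libraries. The part of these differences in the class I levels was not tested. In such bulk samples a change in the number of cells of a type cannot be told apart from a change in RNA per cell.

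Per kilobase of exon, B2m had the highest level of the 9 in each WT group, as RPKM 1044 in normoxia and 5038 in tumor. It was followed by H2-D1 (203.6 and 4382), H2-K1 (91.8 and 1207) and Tapbp (45 and 478.1). Tap1 and Tap2 changed order: Tap1 stood at 9.256 and Tap2 at 19.62 in WT normoxia, but at 204.2 and 111.6 in WT tumor. Nlrc5 was the lowest in normoxia (1.262), and in tumor Erap1 (16.78) lay below Nlrc5 (30.74). The ratio of Tap1 to Tap2 counts was 0.564 to 0.729 in the 16 culture libraries and 2.55 to 2.93 in the 6 tumor libraries.

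Knockout changed none of the 9 genes in normoxia at the threshold (0 of 9, against 11.3% of 13950 genes), and for none did the groups separate fully (20% of all genes). H2-D1 and H2-T23 came closest: both had an unadjusted p under 0.05, and both were called by DESeq2. The median log2 fold change was 0.07 for the 9 genes and -0.02 for all genes. H2-D1 stood at 630.6, 685.7, 793.5 and 839.6 CPM in KO and at 492.4, 503.2, 690.2 and 551.8 in WT. The 2 lower KO libraries lay below the highest WT library, replicate 3. The log2 fold change was 0.40 ± 0.13 (SE, edgeR adjusted p = 0.0616). H2-T23 stood at 67.66, 73.99, 92.51 and 102.5 CPM in KO and at 56.89, 50.09, 76.67 and 60.49 in WT. Its groups overlapped in the same way, through WT replicate 3, at a log2 fold change of 0.46 ± 0.15 (edgeR adjusted p = 0.0687).

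These outcomes varied with the libraries and the test used. Without WT replicate 3, both genes were called, H2-D1 at 0.51 (edgeR adjusted p = 0.0199) and H2-T23 at 0.59 (edgeR adjusted p = 0.0286). Without both WT replicate 3 and KO replicate 4 the values were 0.44 (edgeR adjusted p = 0.00648) and 0.48 (edgeR adjusted p = 0.0134). With all 8 libraries, DESeq2 gave adjusted p = 0.0234 and 0.0303, and with no filter on low counts H2-D1 was called (edgeR adjusted p = 0.0413). H2-K1, in contrast, stood at 258.2, 286.0, 266.5 and 240.2 CPM in KO and at 259.8, 269.2, 351.0 and 269.5 in WT, with a log2 fold change of -0.13 and a 95% interval of -0.36 to 0.10. B2m differed by 0.02 (interval -0.20 to 0.25), Tap1 by 0.07, Tap2 by 0.11, Nlrc5 by 0.08, Tapbp by -0.04 and Erap1 by -0.15. Cell markers also differed in normoxia. Mast cell markers summed to 5.468 to 8.343 CPM in KO and 2.86 to 4.24 in WT, and fibroblast markers to 9.114 to 12.63 and 4.089 to 6.192. The sums of the other marker lists overlapped. Of 13 myeloid markers, Csf3r (1.08) and Ly6g (1.11) were called higher and 0 lower. The endothelial marker Vwf was called lower (-0.95). Their part in these results was not tested.

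In hypoxia, 3 of the 9 genes were called, a share of 33.3% against 34.9% of all 15018 genes tested. H2-T23 and Tap2 rose in KO (17.4% of all genes rose) and Erap1 fell (17.6% fell), by log2 fold changes under 0.4 in size. H2-T23 stood at 83.24, 68.8, 61.33 and 55.56 CPM in KO and at 53.0, 59.17, 43.65 and 48.87 in WT. Only the lowest KO library fell within the WT range, and the log2 fold change was 0.39 (edgeR adjusted p = 0.0283). Tap2 stood at 108.7, 97.98, 95.35 and 84.24 CPM in KO and at 78.07, 89.53, 73.32 and 83.99 in WT. Again 1 KO library lay within the WT range, at a log2 fold change of 0.25 (edgeR adjusted p = 0.0413).

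Erap1, the aminopeptidase, stood at 42.32, 42.95, 40.07 and 43.5 CPM in hypoxic KO cultures and at 47.67, 47.93, 51.12 and 46.58 in WT. Every KO library lay below every WT library, the 1 gene of the 9 of which this held in hypoxia (32.6% of all genes). The log2 fold change was -0.20 (edgeR adjusted p = 0.026). Each of the 3 calls was lost when certain single libraries were left out. H2-T23 lost its call without KO replicate 1 or 2 or WT replicate 1, 3 or 4 (adjusted p up to 0.0734), Tap2 without KO replicate 1, 2 or 3 or WT replicate 1, 3 or 4 (up to 0.112), and Erap1 without KO replicate 1, 2 or 3 or WT replicate 3 (up to 0.0938). The number of genes called among the 9 ran from 0 to 3 in these runs. The other genes were not called: Nlrc5 differed by -0.29 (interval -0.58 to 0.00), H2-D1 by 0.14, Tap1 by 0.11, Tapbp by 0.04, B2m by -0.10 and H2-K1 by -0.08.

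In tumor none of the 9 genes was called with edgeR or DESeq2 (0 of 9, against 6.32% of 14370 genes), none had separate groups (26.1% of all genes), and 1 had an unadjusted p under 0.05. That gene, Nlrc5, stood at 332.4, 280.6 and 267.8 CPM in KO and at 271.5, 232.2 and 225 in WT. The lowest KO library lay below the highest WT library, at a log2 fold change of 0.27 ± 0.10 (edgeR adjusted p = 0.128, or 0.0499 with no filter on low counts). With the replicate number as a block, a pairing that the sample titles do not state, it was called (edgeR adjusted p = 0.000708). H2-K1 stood at 3398, 3525 and 3580 CPM in KO and at 3045, 3534 and 3315 in WT, a log2 fold change of 0.09 with an interval of -0.08 to 0.25. H2-D1 differed by 0.04 (interval -0.14 to 0.22) and B2m by -0.03 (interval -0.18 to 0.12). H2-T23 differed by 0.08, Tap1 by 0.12, Tap2 by 0.05, Tapbp by -0.01 and Erap1 by -0.13. Erap1 in KO tumor, at 97.64, 104.9 and 109 CPM, overlapped with WT, at 112.5, 107.9 and 120.8, but with scaling over all 22 libraries its KO levels (up to 112.4 CPM) lay below those in WT (from 116.8).

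**Figure D2:**
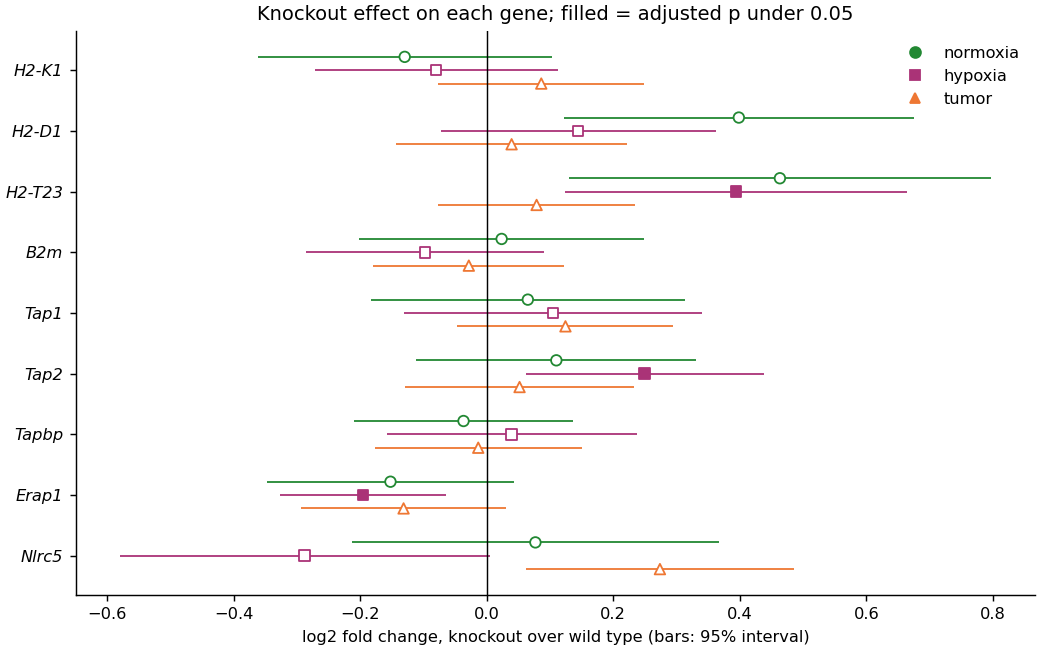
Log2 fold change of KO over WT for each gene in normoxia (circles), hypoxia (squares) and tumor (triangles), with 95% intervals from edgeR's quasi-likelihood test. Filled symbols, for H2-T23, Tap2 and Erap1 in hypoxia, passed the adjusted threshold.

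Whether the KO effect differed between experiments was tested as an interaction. None of the 9 genes passed in any of the 3 pairs with edgeR or DESeq2, against 0.477% of genes for hypoxia minus normoxia, 6.23% for tumor minus normoxia and 8.13% for tumor minus hypoxia. An unadjusted p under 0.05 was found for 0, 2 and 1 of them. The largest difference was that of Nlrc5 between tumor and hypoxia, 0.52 ± 0.18 on the log2 scale (edgeR adjusted p = 0.0794, or 0.0391 with library size alone and 0.0426 with the replicate block). For H2-D1 the tumor effect minus the normoxia effect was -0.41, with an interval of -0.77 to -0.05, and for H2-T23 it was -0.44. The other genes differed by -0.11 to 0.16 there. Apart from Nlrc5, tumor minus hypoxia ran from -0.36 for H2-T23 to 0.12 for H2-K1, and hypoxia minus normoxia from -0.36 for Nlrc5 to 0.14 for Tap2.

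Ratios of counts within a library do not depend on how libraries are scaled. They were examined after the values had been seen and are given without a test. The ratio of H2-D1 to H2-K1 in normoxia was 2.44, 2.4, 2.98 and 3.5 in KO and 1.9, 1.87, 1.97 and 2.05 in WT. In hypoxia it was 2.54, 2.42, 2.63 and 2.4 in KO and 2.2, 2.24, 2.14 and 1.97 in WT. The KO libraries lay above the WT libraries in both cultures, as did 13.4% and 16.7% of all genes when divided by H2-K1.

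The ratio of H2-T23 to H2-K1 was separated in the same way: 0.259 to 0.427 in KO and 0.186 to 0.224 in WT in normoxia, and 0.248 to 0.275 against 0.171 to 0.205 in hypoxia. In tumor the genotypes overlapped. There the ratio of H2-D1 to H2-K1 was 3.12, 3.01 and 3.13 in KO and 3.12, 3.31 and 3.11 in WT, and that of H2-T23 to H2-K1 was 0.341 to 0.401 in KO and 0.356 to 0.392 in WT.

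**Figure D3:**
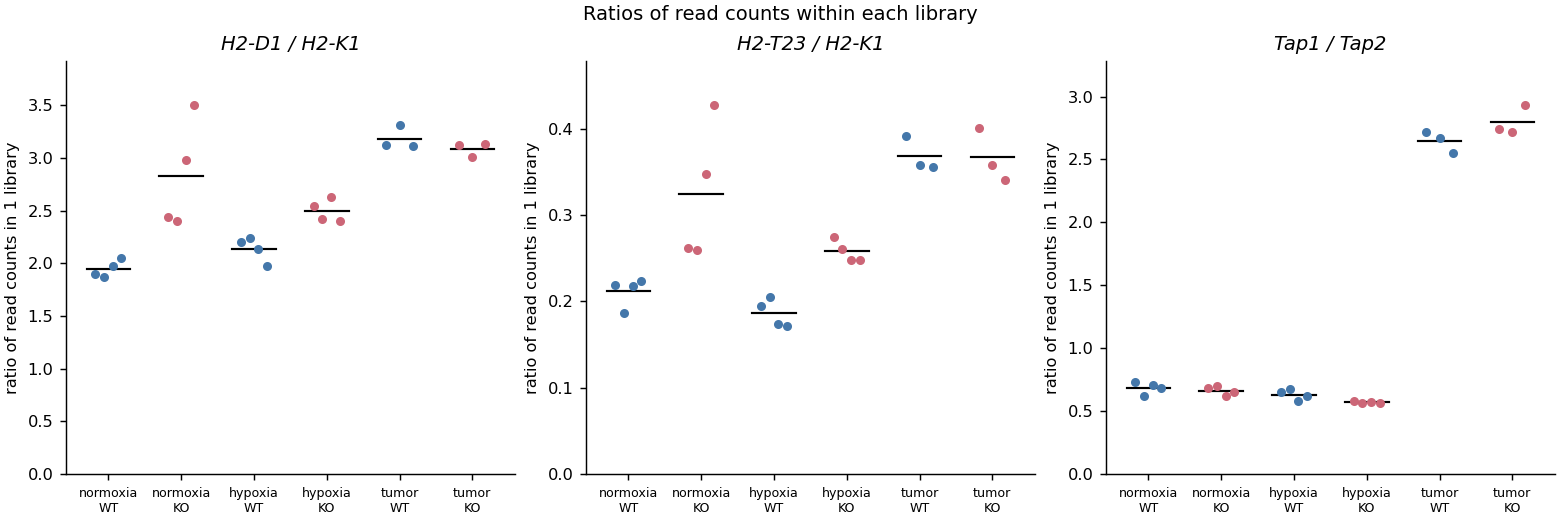
Ratio of read counts within each library for H2-D1 to H2-K1, H2-T23 to H2-K1 and Tap1 to Tap2, by group, with a line at each group mean. In both cultures the KO points for the first 2 ratios lie above the WT points, while Tap1 to Tap2 separates tumor (at least 2.55) from culture (at most 0.729).

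Reads from these genes can be hard to place. Of 50-base stretches of the exons, 9.63% for H2-K1, 12.8% for H2-D1 and 14.5% for H2-T23 also occur in other genes, and of 100-base stretches 0.957%, 3.59% and 3.15%. Tapbp shared 14.8% of its 100-base stretches, nearly all with the overlapping Gm19412, and Erap1 10% with Cast. Whether counting used strand is not given in the sources used here, so reads of such overlapping genes cannot be told apart.

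Hypoxic and normoxic cultures differ in oxygen, culture time and table, which cannot be told apart. In WT, B2m and Erap1 fell and no gene of the 9 rose (22.2% called lower, against 27.3% of 14545 genes lower and 53.3% called in either direction). B2m stood at 752.9, 759.6, 592.6 and 667.6 CPM in hypoxia and at 898.3, 881.2, 1118 and 928.5 in normoxia, where each experiment is scaled by itself. The groups did not overlap, which held for 47.6% of all genes, and B2m fell by 0.36 on the log2 scale in the joint fit (edgeR adjusted p = 0.00773). Erap1 also showed no overlap between hypoxia and normoxia, and fell by 0.52 (edgeR adjusted p = 0.000208). Without normoxia WT replicate 3, H2-D1 (0.30, edgeR adjusted p = 0.00659) and Tap2 (0.25, edgeR adjusted p = 0.0138) were called as well. In KO, 3 of 9 were called (against 47.9% of 14641 genes, 23.1% of them lower), and the same 3 had separate groups (43.7% of all genes): B2m fell by 0.46 (edgeR adjusted p = 0.0016), Erap1 fell by 0.54 (edgeR adjusted p = 0.000127) and Tap2 rose by 0.30 (edgeR adjusted p = 0.0167). The Tap2 call was lost without normoxia KO replicate 1 (edgeR adjusted p = 0.0654) or hypoxia KO replicate 1 (0.0532), and with library size alone (0.0678). Nlrc5, at -0.33, was called on all libraries by DESeq2 (adjusted p = 0.0386) and with library size alone (-0.44, edgeR adjusted p = 0.0179), and by the quasi-likelihood test without normoxia KO replicate 2 (-0.41, edgeR adjusted p = 0.0335) or hypoxia KO replicate 3 (-0.39, 0.0473). H2-K1 differed by 0.03 in WT (interval -0.17 to 0.24) and by 0.11 in KO (interval -0.11 to 0.32). The remaining genes differed by -0.15 to 0.17 in WT and by -0.20 to 0.09 in KO.

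Among 11 other class I heavy chain genes tested, 2 were called in normoxia (11.3% of all genes) and 1 in hypoxia (34.9%). H2-T24 rose in KO in both cultures. In normoxia it stood at 19.84, 20.96, 21.38 and 35.46 CPM in KO and at 14.53, 15.56, 15.44 and 17.26 in WT, a log2 fold change of 0.64 (edgeR adjusted p = 0.0375). In hypoxia it stood at 12.36, 11.36, 11.07 and 10.46 CPM in KO and at 7.434, 6.848, 6.164 and 6.574 in WT, a log2 fold change of 0.74 (edgeR adjusted p = 0.000202). The groups did not overlap in either culture, which held for 20% of all genes in normoxia and 32.6% in hypoxia. The normoxia call was lost without KO replicate 3 or without any 1 WT library (adjusted p up to 0.117), while the hypoxia call was kept without each library in turn. In tumor H2-T24 differed by -0.01, and that difference of effects between tumor and hypoxia passed the test (-0.79, edgeR adjusted p = 0.0309).

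In tumor, 2 of 11 other heavy chain genes were called higher and 1 lower, where 6.32% of all genes were called. H2-Q7 and H2-Q6, neighbouring genes of the Qa-2 family, rose in KO. H2-Q7 stood at 723.1, 781.6 and 877.3 CPM in KO and at 308.8, 324.9 and 371.4 in WT, a log2 fold change of 1.24 (edgeR adjusted p = 5.06e-06). H2-Q6 stood at 527.3, 540.2 and 589 CPM in KO and at 254.8, 315.7 and 290.5 in WT, a log2 fold change of 0.94 (edgeR adjusted p = 3.43e-05). Every KO library lay above every WT library for both, while 26.1% of all genes had separate groups in either direction. These are near-identical paralogs, so the split of reads between them is uncertain. Mr1, which presents vitamin metabolites, fell by 0.70 (edgeR adjusted p = 0.00313). All 3 calls were kept without each library in turn. In tumor, dendritic markers summed to 28.28 to 34.18 CPM in KO and 19.11 to 21.69 in WT, with Cd209a and Flt3 called higher, and erythroid markers to 119.7 to 131 in KO and 60.36 to 95.1 in WT, with 3 of 4 called higher. Myeloid markers summed to 24420 to 28120 CPM in KO and 19220 to 23200 in WT. Their single genes differed in direction: of 10 tested, Csf3r was called higher (0.44) and Itgam lower (-0.41). The fibroblast and T and NK cell sums given above were likewise apart. The part of these differences in the heavy chain values was not tested. In normoxia H2-Q10 was also called, at 1.22, but not without KO replicate 3 or 4 or WT replicate 1, 2 or 4 (edgeR adjusted p up to 0.106).

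Among the other lists of the pathway, proteasome genes were lower in hypoxic KO cultures, where 34.9% of all genes were called and 17.6% were called lower. All 3 standard catalytic subunits fell, Psmb6 by 0.56, Psmb5 by 0.41 and Psmb7 by 0.36 on the log2 scale. Of 5 immunoproteasome genes, Psmb10 fell by 0.44, Psme2 by 0.37 and Psmb8 by 0.31. Of 11 loading and folding partners, the peptidase Thop1 fell by 0.89, and the lectin chaperone Canx by 0.29, its partner Pdia3 by 0.30 and Bcap31 by 0.21. The calls numbered 3 of 3, 3 of 5 and 4 of 11 in these lists, the last a share near that of all genes called in either direction. The calls of Pdia3 (without KO replicate 1 or 3 or WT replicate 1 or 3) and Bcap31 (without KO replicate 2 or 3 or WT replicate 1 or 3) were lost, at edgeR adjusted p up to 0.0859 and 0.0675. The medians were -0.41, -0.31 and -0.13, against -0.01 for all genes. Of 9 marker lists, 5 had sums that did not overlap between genotypes in hypoxia. Myeloid markers summed to 24180 to 27030 CPM in KO and 17430 to 21860 in WT, and mast cell markers to 239.3 to 358.8 in KO and 147.5 to 208.9 in WT. Of 13 myeloid markers, 8 were called higher and 1, Cd68 (-0.66), lower. Erythroid markers summed to 5.665 to 11.79 CPM in KO and 23.64 to 80.14 in WT, and epithelial or carcinoma markers to 108 to 169 in KO and 247.6 to 288.5 in WT. Of the epithelial or carcinoma markers, Cdh1 fell by 0.86 on the log2 scale while Krt18 rose by 0.73. Dendritic markers summed to 30.57 to 61.61 CPM in KO and 73.78 to 95.74 in WT, but single genes differed in direction: Itgax fell by 0.88 on the log2 scale, while Cd209a (1.19) and Clec9a (1.28) rose. Their part in these results was not tested. In normoxia (11.3% of all genes called) only Psmb7 was called in these lists, at -0.31, and in tumor (6.32%) only Thop1, at 0.62. Psmb7 lost that call without KO replicate 1, 3 or 4 or WT replicate 1, 2 or 4 (edgeR adjusted p up to 0.112), and Thop1 without tumor KO replicate 2 or WT replicate 1 (up to 0.109). The medians in normoxia lay below 0 as well. They were -0.31 for the standard catalytic subunits, -0.15 for the immunoproteasome and -0.11 for the loading and folding partners, against -0.02 for all genes. For the difference of KO effects, hypoxia minus normoxia, 0 genes of these lists were called (0.477% of all genes).

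Of 13 promoter factor genes, Ciita, the class II activator related to Nlrc5, rose by 2.50 in normoxia and by 0.65 in tumor. In normoxia it was low, at 6.867, 9.055, 6.426 and 12.55 CPM in KO and 1.787, 0.7354, 2.375 and 1.245 in WT. There every KO library lay above every WT library, while 20% of all genes had separate groups in either direction. Irf1 and Nfkb1 rose in tumor, each by 0.33. Of the 13, none was called in hypoxia (34.9% of all genes), 1 in normoxia (11.3%) and 3 in tumor (6.32%). Of 11 interferon signalling genes, Jak2 alone was called in normoxia, where it rose (0.29). In hypoxia 2 of them were called higher and 1 lower. These included Jak1, which rose (0.29), and the inhibitor Socs1, which fell by 0.55. None of 12 was called in tumor. Of 11 interferon gamma targets, 1 was called higher and 2 lower in each culture. Gbp7 rose in normoxia (0.43) while Icam1 fell by 0.46 and Cd274, which encodes PD-L1, fell by 0.39. In hypoxia Igtp rose (0.36) while Icam1 fell by 0.42 and Cd274 by 0.32. In tumor 3 of 13 targets, Igtp (0.48), Gbp4 (0.40) and Gbp5 (0.39), were called higher and none lower. Of the genes in this paragraph, Ciita in both, Icam1 in both cultures, and Jak1, Socs1 and Igtp in hypoxia kept their call without each library in turn. In normoxia Jak2 (without KO replicate 3 or WT replicate 1, 2 or 4), Gbp7 (without WT replicate 2 or 4) and Cd274 (without WT replicate 1 or 4) lost it, at edgeR adjusted p up to 0.105, 0.068 and 0.0717. In hypoxia Cd274 lost it without KO replicate 2, 3 or 4 or WT replicate 2 or 4 (up to 0.113). In tumor Irf1 (without KO replicate 1 or 2 or WT replicate 1), Nfkb1 (without KO replicate 1 or 2 or WT replicate 3), Gbp4 (without KO replicate 1), Igtp (without KO replicate 1 or 2) and Gbp5 (without KO replicate 1 or 2 or WT replicate 1 or 2) lost it, at edgeR adjusted p up to 0.099, 0.117, 0.0504, 0.0828 and 0.191.

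**Figure D4:**
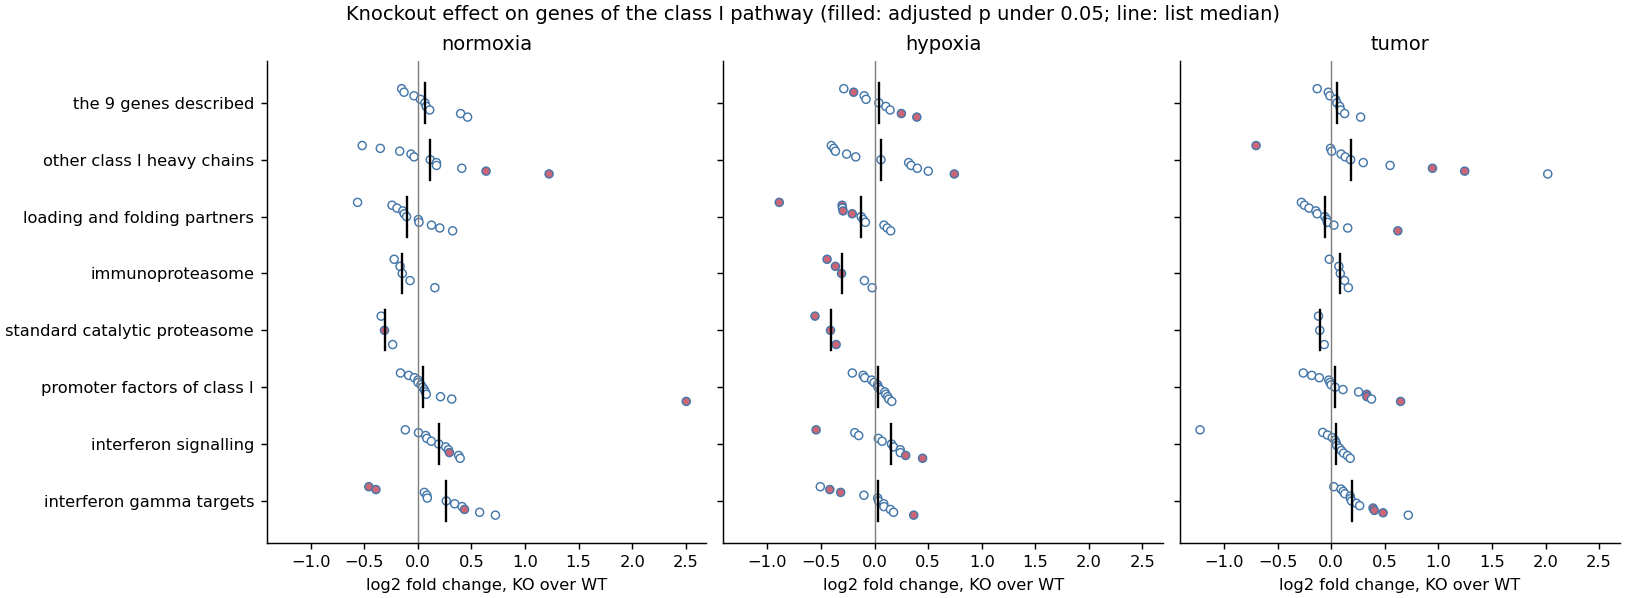
Log2 fold change of KO over WT for each tested gene of 8 lists in the 3 experiments, with a line at each list median and filled points for genes called by edgeR. In hypoxia all 3 standard catalytic proteasome genes lie to the left of 0 and are filled.

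Tumor and culture also differed in these lists. All 5 immunoproteasome genes and all 13 interferon gamma targets were higher in every tumor library than in any culture library, as were 8 of 11 other heavy chains, against 27.2% of all genes. So were all 3 standard catalytic subunits, 10 of 11 interferon signalling genes and 5 of 13 promoter factors. Of the loading and folding partners 3 of 11 were, a share near that of all genes. The median ratio of WT tumor to WT normoxia was 115 for the interferon gamma targets, 13.1 for the 9 genes and 12.3 for the other heavy chains. It was 11.9 for the immunoproteasome, 2.66 for interferon signalling and 1.47 for the standard catalytic subunits. For the promoter factors it was 1.07, for the loading and folding partners 0.83 and for all genes 1.01.

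Over the 22 libraries, the genes most like H2-K1 by Pearson correlation of log2 CPM, among 8329 compared, were H2-M3 and Psmb8 (r = 0.9964 each), Cnp (0.9962) and Fez2 (0.996). Those most like Tap1 were Parp10 (0.9984), Gbp5 (0.9971), Gbp3 (0.997) and Gbp2 (0.9965), and those most like Nlrc5 were H2-T22 and Gbp5 (0.9963 each), Lpin2 (0.9962) and Ube2l6 (0.996). All points share the tumor and culture difference. With group means removed, r ran from 0.498 for H2-M3 with H2-K1 to 0.753 for Gbp5 with Nlrc5. Between pairs of the 9 genes it ran from -0.653 to 0.906, with a median of 0.614 over 36 pairs, and was highest for H2-D1 with H2-T23.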

How the data were processed

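The authors deposited 1 table of raw counts per experiment. The submitters' processing notes name Subread, featureCounts and the build GRCm38.p6, with no versions. Libraries came from 100 ng of total RNA by a SMART-Seq kit (Takara), per the labels. The authors' normalized tables were not used. The 3 experiments were fitted separately, by edgeR 4.0.16 under R 4.3.3 (filterByExpr, TMM scaling, robust quasi-likelihood test, adjusted p threshold 0.05), the interactions over 16 or 22 libraries. CPM and RPKM were computed from the counts, RPKM over merged exons of GENCODE M21. Alternatives were DESeq2 1.42.0, library size alone, no filter on low counts, a replicate block and leaving out libraries. The scripts were tested on simulated data. From each related list, up to 4 genes with the smallest p in a comparison were open to naming. The genes and lists were chosen with earlier results of these data known. Ratios within libraries, H2-T24, H2-Q6 and H2-Q7 sample values, and the run without normoxia KO replicate 4 and WT replicate 3 were chosen after seeing the data. No library was a copy of another of its group: the least chi-square per degree of freedom was 4.57.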

Additional observations from a re-analysis of the deposited data

Results flagged for a closer look

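In 5 of 36 groups of 4 culture libraries, 1 library lay far from the other 3 for a gene of the 9, by a test that chance meets in about 1 group in 20. WT normoxia replicate 3 was the high library for H2-K1 (351 CPM), Tap2 (95.24 CPM) and Tapbp (195.7 CPM). KO normoxia replicate 1 was low for Tap2 (77.32 CPM), and WT hypoxia replicate 2 was high for Nlrc5 (13.38 CPM).

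Among genes of the related lists, the KO effect differed between experiments for these, as log2 differences with edgeR adjusted p. For Ciita the hypoxia effect minus the normoxia effect was -2.71 (edgeR adjusted p = 0.0138), and the tumor effect minus the normoxia effect was -1.91 (edgeR adjusted p = 0.0119). The tumor effect exceeded the normoxia effect by 1.54 for H2-Q7 (edgeR adjusted p = 0.0485), by 1.14 for Thop1 (edgeR adjusted p = 0.0386) and by 0.60 for Icam1 (edgeR adjusted p = 0.00734). For Npepps it was lower, at -0.53 (edgeR adjusted p = 0.00344). The tumor effect exceeded the hypoxia effect by 2.34 for H2-Q1 (edgeR adjusted p = 0.0257), 1.47 for Thop1 (edgeR adjusted p = 0.00604), 0.57 for Icam1 (edgeR adjusted p = 0.00865) and 0.49 for Psmb10 (edgeR adjusted p = 0.0161). It was lower by this measure for H2-T24, at -0.79 (edgeR adjusted p = 0.0309), and Npepps, at -0.47 (edgeR adjusted p = 0.00676). H2-Q1 itself was called neither in tumor (2.02 ± 0.77, edgeR adjusted p = 0.245) nor in hypoxia (-0.37, edgeR adjusted p = 0.154).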

How the results depend on the processing

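Genes called in normoxia numbered 1577 in the main test, 2395 with DESeq2 and 2881 without KO replicate 4 and WT replicate 3 together, and 469 (without WT replicate 1) to 2234 (without KO replicate 2) with 1 library left out. In tumor 908 became 1363 with no filter on low counts and 443 to 1072 with 1 library left out. For the difference of KO effects, hypoxia minus normoxia, 73 became 200 with DESeq2 and 40 to 100 with 1 library left out, and for tumor minus normoxia 999 became 660 to 1152. Of the 9 genes, the number called in normoxia was 2 with DESeq2, 1 with no filter, 2 without the pair of libraries and 0 to 2 with 1 left out. It was 1 in tumor with no filter, 1 for tumor minus hypoxia with library size alone, 0 to 3 in hypoxia and 2 to 4 for oxygen in WT with 1 library left out. In hypoxia the Tap2 call was lost with library size alone (edgeR adjusted p = 0.0689), and that of Erap1 with no filter (edgeR adjusted p = 0.0821).

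Library size alone moved the log2 values of the 9 genes. The median shift over them was -0.085 in normoxia, -0.124 for oxygen in WT, -0.103 for oxygen in KO and 0.141 for tumor minus normoxia. Among all genes called, the share of higher calls moved from 63.1% to 43.3% in normoxia, 48.8% to 34.7% for oxygen in WT and 51.9% to 39.9% for oxygen in KO. It moved from 39.7% to 50% for hypoxia minus normoxia, 30.1% to 58.6% for tumor minus normoxia and 37.6% to 53.6% for tumor minus hypoxia. Every value of the 9 genes that changed sign was uncalled. With library size alone these were B2m -0.0636, Tap1 -0.0173 and Nlrc5 -0.00765 in normoxia, and Tapbp -0.00209 in hypoxia. For oxygen they were H2-K1 -0.0879, Tap1 -0.0942 and Nlrc5 -0.117 in WT, and Tap1 -0.0122 and Tapbp -0.0179 in KO. For differences of effects they were Erap1 0.00288 (hypoxia minus normoxia), B2m 0.0411, Tap2 0.0311, Tapbp 0.114 and Erap1 0.112 (tumor minus normoxia) and Tap1 0.0653 (tumor minus hypoxia). For oxygen in WT, Tapbp was 0.01 with DESeq2 and Nlrc5 -0.00571 with no filter. Without the pair of normoxia libraries, H2-K1 was 0.019 and Tapbp 0.0146. Beyond the construction of each setting, the cause was not tested.

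With 1 library left out, these values changed sign, given as ranges. In normoxia they were B2m -0.0263 to 0.106, Tap1 -0.00711 to 0.184, Nlrc5 -0.0108 to 0.148 and Tapbp -0.0673 to 0.0234, and in hypoxia Tapbp -0.0244 to 0.114. In tumor they were B2m -0.055 to 0.00117, Tap2 -0.000903 to 0.122, Tapbp -0.056 to 0.0471 and H2-D1 -0.0367 to 0.122. For oxygen they were Tap1 -0.0547 to 0.159, Nlrc5 -0.115 to 0.0904 and Tapbp -0.0474 to 0.0578 in WT, and H2-D1 -0.152 to 0.0247 in KO. For hypoxia minus normoxia they were H2-T23 -0.195 to 0.0485, H2-K1 -0.0548 to 0.119, Tap1 -0.0744 to 0.126 and Erap1 -0.0847 to 0.0249. For tumor minus normoxia they were Tap1 -0.0844 to 0.0924, Erap1 -0.067 to 0.0608 and Tapbp -0.0701 to 0.0374, and for tumor minus hypoxia Tap1 -0.102 to 0.0472, Erap1 -0.0405 to 0.0592 and B2m -0.018 to 0.07.

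The sample titles do not state whether replicate numbers pair the samples. Same-numbered libraries correlated between genotypes at -0.0437 to 0.258 in normoxia, -0.146 to 0.0171 in hypoxia and 0.0297 to 0.157 in tumor. Each tumor library correlated best with its own number, a hint from the data and not from the design. With the replicate number as a block, 2266 genes were called in tumor and 40 for hypoxia minus normoxia. Of the 9 genes, the block called 2 in normoxia (H2-D1 and H2-T23, edgeR adjusted p = 0.0118 and 0.014), 1 in hypoxia (H2-T23), 1 in tumor (Nlrc5, edgeR adjusted p = 0.000708, against 0.128 without the block) and 1 for tumor minus hypoxia (Nlrc5), and for tumor minus normoxia Tap1 was -0.00109. The Tap2 call for oxygen in KO was lost with the block (edgeR adjusted p = 0.056).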
